A study of Bos taurus with 57 samples.

Results

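The testes of bull calves were compared with the arcuate nucleus by RNA sequencing, in all 38 libraries that carry either tissue label out of the 57 libraries of the series. The calves were Holstein Friesian bulls euthanized at 126 days of age after either plane of nutrition, high or low, for which the sample labels give growth of 1.08 and 0.5 kg per day and the series' design text planned rates of 1.2 and 0.5 kg per day. The testes gave 18 libraries, 10 from the high and 8 from the low plane, and the arcuate nucleus 20 libraries, 10 from each plane. The 19 anterior pituitary libraries enter only as side values. The calves gave more than one tissue, but the labels do not link a library to a calf, so libraries were treated as independent and a tissue difference within calves was not analysed here.

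The arcuate nucleus lies at the base of the hypothalamus, where neurons that sense metabolic state act on the neurons that release GnRH. Gonadotrophins from the pituitary then act on the testes, where Leydig cells make testosterone and Sertoli cells nurse the germ cells. One tissue is thus nervous tissue made of neurons and glia, and the other a gland in which, before puberty, the seminiferous tubules are still maturing. The deposited files list genes by Ensembl identifier without names, so neither tissue label could be checked against marker genes, and what the genes below encode is not given.

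Reads on genes ran from 898979 to 32009433 in the arcuate nucleus libraries and from 8586953 to 26067610 in the testes libraries. The shallowest was the high plane arcuate nucleus library C22. Of 24616 genes listed, 1786 had no read in any of the 38 libraries. Levels are given as CPM, counts scaled to the total on genes of a library. Since the tissues are mixtures of cell types, more cells of a type and more RNA per cell cannot be told apart.

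Tissue separated the libraries on the first principal component of log2 CPM, which held 63.1% of the variance. All testes libraries scored between 110 and 188 and all arcuate nucleus libraries between -142 and -13.2. The testes library A48, whose title carries the letter of the pituitary libraries, scored 115 and was kept with the testes as its tissue label states. The second component held 25.4% of the variance and set apart 6 libraries that scored above 100, namely C6 and C33 of the arcuate nucleus on the low plane, B21, B2 and B15 of the testes on the low plane, and B42 of the testes on the high plane. Of these, 3 testes and 2 arcuate nucleus libraries came from the low plane.

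**Figure D1:**
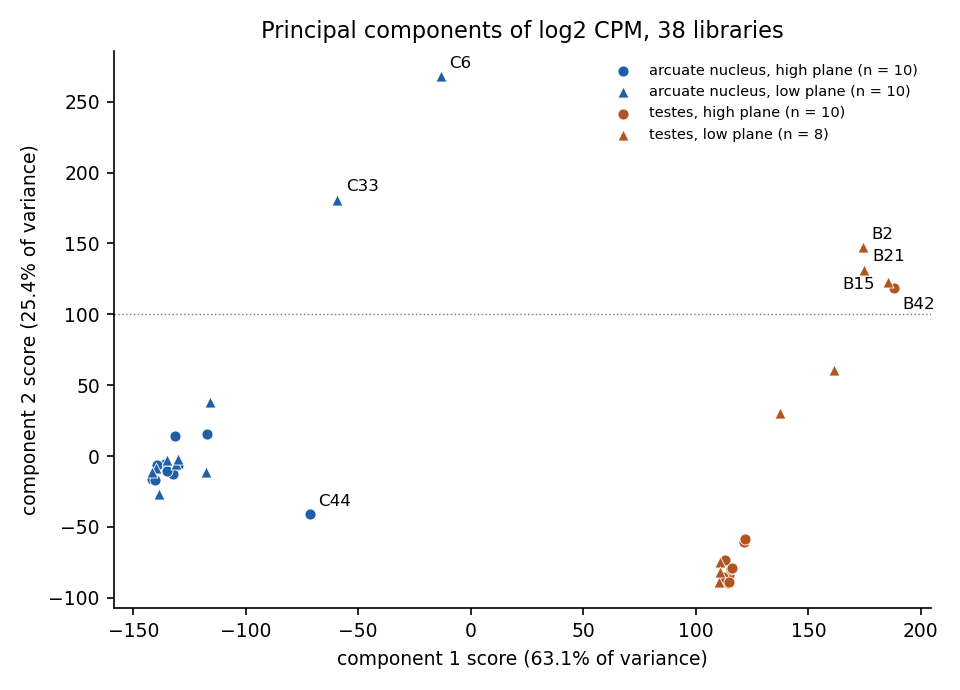
Scores of the 38 libraries on the first and second principal component of log2 CPM, with testes in brown, arcuate nucleus in blue, circles for the high and triangles for the low plane, and a dotted line at 100 on component 2. The tissues do not overlap on component 1, C44 lies at -71.4, nearer the testes than most arcuate nucleus libraries, and 6 libraries lie above the line.

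The high plane arcuate nucleus library C44 stood apart in another way. Left out of the choice, it was compared over 12 genes that had at least 10 CPM in every testes library and under 1 CPM in each of the other 19 arcuate nucleus libraries. In C44 these genes reached a median of 25.4% of their testes median, with a range of 17.9 to 36.7%, and their CPM summed to 181. The same sum was 553 to 935 in the testes libraries and 0 to 2.64 in the other arcuate nucleus libraries. Both of these ranges were limited by the choice of genes. In the shallow library C22, 1 read exceeds 1 CPM, so its sum of 0 was forced. This set therefore cannot show whether C22 held reads of testes genes. For ENSBTAG00000021516, described below, C22 had 42.3 CPM, the highest arcuate nucleus value after C44. Conversely, 22 genes that had at least 10 CPM in each of those 19 arcuate nucleus libraries and under 1 CPM in every testes library were at a median of 81.0% of their arcuate level in C44, against 83.1 to 138% in the other arcuate nucleus libraries. C44 thus held reads of both gene sets. What brought them there was not tested, and results that rest on it are given with and without it.

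Libraries of one tissue resembled each other more than libraries of the 2 tissues did. Pearson's r of log2 CPM across genes had a median of 0.961 among arcuate nucleus libraries, 0.950 among testes libraries and 0.633 between the tissues. The ranges were 0.670 to 0.987, 0.747 to 0.986 and 0.477 to 0.810, so they overlapped. Without C44 and the 6 libraries of the second component, the ranges were 0.917 to 0.987, 0.867 to 0.986 and 0.548 to 0.672 and no longer overlapped between and within tissues. The common biological coefficient of variation, the spread between libraries beyond counting error, was 0.429 among arcuate nucleus libraries and 0.485 among testes libraries. It was 0.251 and 0.299 without those libraries. Since the libraries left out were picked from the same counts, the narrower ranges of r and these lower spreads follow in part from that choice.

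A differentially expressed gene (DEG) is here one with a false discovery rate (FDR) below 0.05 in edgeR's quasi-likelihood test, fitted with the plane of nutrition as a covariate. Of 15507 genes tested, 11789 were DEG. Expression was higher in the testes for 6173 genes, 39.8% of those tested, and higher in the arcuate nucleus for 5616 genes, 36.2%. The order turned for large differences. A fitted difference of at least 4-fold was found for 1528 genes higher in the testes, 9.85% of those tested, and for 2180 genes higher in the arcuate nucleus, 14.1%. That order depended on the filter, because without one 2854 genes were higher in the testes against 2580 in the arcuate nucleus at 4-fold.

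The testes side held the smaller differences. Among DEG, the median size was 1.11 on the log2 scale for genes higher in the testes and 1.504 for genes higher in the arcuate nucleus. Differences under 2-fold made up 44.3% of the testes side and 33.6% of the arcuate side. Differences of at least 128-fold were fitted for 16 genes higher in the testes and for 136 higher in the arcuate nucleus. This contrast rested on C44. Without that library, 184 genes were at least 128-fold higher in the testes against 141 in the arcuate nucleus. The count of 4-fold genes moved little, to 1562 and 2171, and 1511 and 2158 of these were shared with the calls over all libraries.

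**Figure D2:**
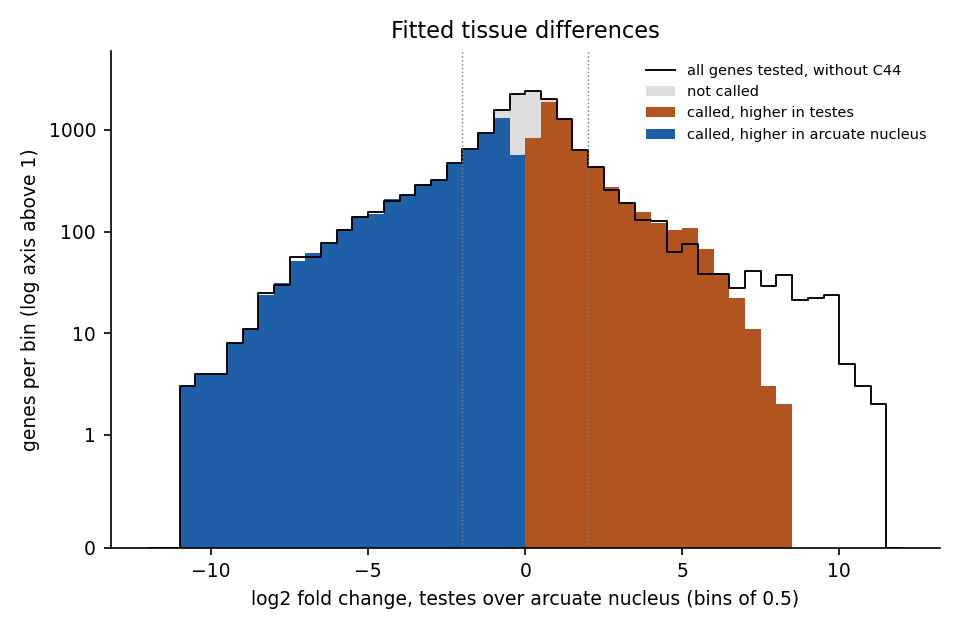
Number of genes per 0.5 of log2 fold change, testes over arcuate nucleus, on a log axis, with DEG coloured by the tissue in which they were higher, other genes in grey and the outline of all genes tested without C44 in black. With C44 the testes side ended at 8.35 and the arcuate side at -10.9, and without it the outline extends the testes side beyond 11.

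The spread between libraries left many DEG with overlapping values. Of all 15507 genes tested, 79.6% overlapped between the tissues. In 1808 genes the lowest testes library lay above the highest arcuate nucleus library, and in 1362 genes the reverse held. These were 29.3% and 24.3% of the DEG on each side. Without C44 they were 2037 and 1369 genes, and the other libraries that stood apart were kept. Of the 4-fold genes, 906 of 1528 on the testes side and 1069 of 2180 on the arcuate side were free of overlap. Without C44, 1094 and 1070 of the same genes were. The median coefficient of variation of a 4-fold gene within its higher tissue was 44.2% in the testes against 38.7% in the arcuate nucleus.

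The planes of nutrition share no library, so the tissue difference could be fitted within each. On the high plane 1464 genes were at least 4-fold higher in the testes and on the low plane 1536, of which 1221 were the same genes, 83.4% of the first list and 79.5% of the second. In the arcuate nucleus the lists held 2128 and 2123 genes and shared 1908, or 89.7 and 89.9%. None of the 4-fold genes of the high plane was a DEG in the opposite direction on the low plane. Across 15135 genes tested in both fits, the log2 fold changes had a Pearson's r of 0.958 as a description, since genes are not independent replicates, and differed by a median of 0.28.

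Whether the tissue difference itself changed with the plane of nutrition was tested by the interaction of tissue and diet. By edgeR's quasi-likelihood test no gene passed, 0% of 15507 genes, and the smallest FDR was 0.0618. At an unadjusted p below 0.05 there were 1642 of the 15507 genes. DESeq2 called 203 genes in the same design. Without B42 edgeR called 8 genes, and without C44 and the 6 libraries of the second component it called 69. The log2 fold change, testes over arcuate nucleus, was larger on the low plane in 160 of the 203, 2 of the 8 and 15 of the 69.

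The genes with the largest fold changes were ranked among DEG with at least 10 CPM in the higher tissue and no overlap between the tissues, which left 1486 genes higher in the testes and 1151 higher in the arcuate nucleus. Over all 38 libraries, the gene ranked first towards the testes was ENSBTAG00000021516. Its CPM in testes libraries had a lowest value of 729, a median of 2160 and a highest value of 4806, and in arcuate nucleus libraries 0.404, 1.71 and 162. The highest arcuate value was that of C44, followed by C22 at 42.3 CPM. By the rule of the ranking, no library overlapped between the tissues. The log2 fold change was 8.35 ± 0.74 (SE; edgeR quasi-likelihood test, FDR = 4.2e-13), and 9.77 ± 0.52 without C44. Its rank rested on C44, since in a ranking made without that library the first 10 testes genes all exceeded it, with log2 fold changes of 9.99 to 11.40.

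Ranked second over all libraries was ENSBTAG00000014335. It ran from 175 CPM in the lowest testes library over a median of 1176 to 3722 in the highest, and in the arcuate nucleus from 0.156 over 1.58 to 80.6. C44 and C22, at 80.6 and 21.1 CPM, were again the highest arcuate nucleus libraries. By the rule of the ranking they lay below the testes range. The log2 fold change was 8.07 ± 0.68 (SE; edgeR quasi-likelihood test, FDR = 1.4e-13), and 9.36 ± 0.54 without C44, which again left it outside the first 10 of the ranking without C44. On the high plane alone, which holds both C44 and C22, it was ahead of ENSBTAG00000021516, at 7.46 against 7.20. In the testes the mean of ENSBTAG00000014335 was 1976 CPM on the high and 755 on the low plane. In the arcuate nucleus its means were 11.2 and 1.64 CPM, with medians of 1.58 and 1.69. The interaction of tissue and diet had an FDR of 0.795 in edgeR with C44 and C22 included, and its value without them is not given.

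Towards the arcuate nucleus ENSBTAG00000012912 ranked first. Its arcuate nucleus libraries had a lowest value of 100 CPM, a median of 235 and a highest value of 641, the last in C6. In the testes the lowest value was 0, the median 0.0554 and the highest 0.815. Every arcuate nucleus library was above every testes library, as the ranking required, and no testes library reached 1 CPM. The log2 fold change was -10.86 ± 0.48 (SE; edgeR quasi-likelihood test, FDR = 5.4e-22), and -10.89 without C44.

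ENSBTAG00000006977 was second in that direction and far more abundant. The order of these genes, ENSBTAG00000012912 before ENSBTAG00000006977, lay within their SE and turned on the low plane alone, at -10.22 against -10.42, with limma voom, at -11.82 against -11.90, and by a smaller margin with library totals. It had a lowest value of 2637 CPM, a median of 6529 and a highest value of 14448 in the arcuate nucleus, where it ranked as number 11 of all genes by mean CPM. In the testes it ran from 0.161 over 1.97 to 12.2 CPM. The log2 fold change was -10.84 ± 0.60 (SE; edgeR quasi-likelihood test, FDR = 4.8e-19). C44, at 5129 CPM, lay within the range of the other arcuate nucleus libraries for this gene.

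**Figure D3:**
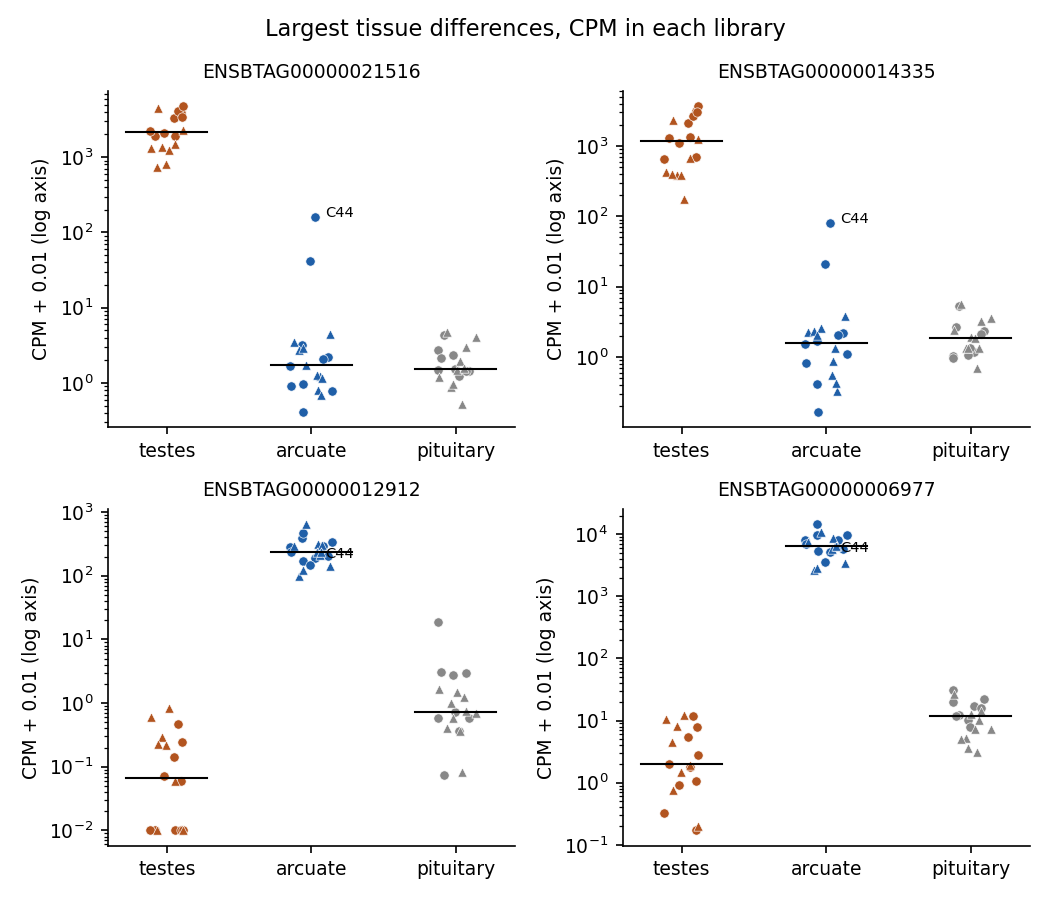
CPM plus 0.01 on a log axis in each library for the 2 genes ranked first over all 38 libraries towards the testes (top) and towards the arcuate nucleus (bottom), with circles for the high plane, triangles for the low plane and a bar at the median. For the top genes C44 is the highest arcuate nucleus library, at 162 and 80.6 CPM, and for the bottom genes it lies among the others.

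The 10 genes at the head of each direction differed in how C44 touched them. In 9 of 10 towards the testes C44 was the highest arcuate nucleus library, and in none of 10 towards the arcuate nucleus. In the remaining testes gene the shallow library C22 was the highest, at 2.22 CPM against 1.83 in C44. C22 was kept in the fit without C44, and a fit without both was not run. The log2 fold changes of the testes genes spanned 7.05 to 8.35, and 7.68 to 10.09 without C44. Those of the arcuate genes had sizes of 9.60 to 10.86, and 9.60 to 10.89 without C44. When the ranking itself was made without C44, 2 of the 10 testes genes and 10 of the 10 arcuate genes were the same. The testes genes named above were not among those 2. In the anterior pituitary the 10 testes genes had mean levels of 0.0229 to 2.19 CPM and the 10 arcuate genes 0.0979 to 24.9 CPM.

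No gene was seen in only one tissue by a strict rule, at least 1 CPM in every library of one tissue and no read in any library of the other. The other tissue was searched at a pooled depth of 326386523 reads in the arcuate nucleus against 305189886 in the testes, where a count of 0 allows a level of up to 0.00919 and 0.00983 CPM. These limits cover counting error only. Without C44, 6 genes were seen in the testes only. Their mean levels in the testes ran from 2.53 to 21.8 CPM, and in C44 they had 18 to 223 reads. Against the limit of 3 reads over the other 19 arcuate nucleus libraries, the 6 genes were at least 238-fold to at least 2250-fold higher in the testes. In the 19 anterior pituitary libraries they had 1 to 8 reads in all.

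With 1 read allowed in each library of the other tissue, 2 genes were seen in the arcuate nucleus only and none in the testes. The 2 arcuate genes had mean levels of 5.25 ± 1.93 and 3.90 ± 1.26 CPM (SD, n = 20), with 7 and 3 reads in all testes libraries together. Without C44 the same rule gave 46 testes genes and 2 arcuate genes. By level rather than by absence, 22 genes had at least 10 CPM in every arcuate nucleus library and under 1 CPM in every testes library, and 15 of them had at least 1 CPM on average in the anterior pituitary. None did the reverse with C44. The reverse also required no read in C22, where 1 read exceeds 1 CPM, and it was not counted without C22. Without C44 12 genes did the reverse, of which 2 had at least 1 CPM in the anterior pituitary. Of all genes tested, 88.2% reached that pituitary level.

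Most genes were found in both tissues. A mean of at least 1 CPM was reached by 14518 genes in the testes against 14438 in the arcuate nucleus, and 13407 of these were shared, 92.3% of the testes list and 92.9% of the arcuate list. At 0.1 CPM, 17864 genes reached the level in the testes against 16975 in the arcuate nucleus, of which 16482 were shared, and 1382 reached it in the testes only. At 100 CPM, 1214 genes were shared, 54.2% of the 2238 testes genes and 60.5% of the 2006 arcuate genes. At 1000 CPM, 26 genes were shared among 71 and 69. At 10 CPM the order was the reverse, with 10169 testes genes and 10453 arcuate genes, of which 8834 were shared. From 1 CPM upwards the shared percent of both lists fell at each higher level.

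Large differences were not confined to scarce genes. Among 4-fold genes, the median CPM in the higher tissue was 19.1 in the testes (quartiles 5.10 and 74.9) and 26.8 in the arcuate nucleus (7.76 and 83.0). Above 1000 CPM there were 27 testes genes and 31 arcuate genes, and between 1 and 10 CPM 38.3% of the testes genes and 28.7% of the arcuate genes. These genes took up 15.7 ± 1.42% of the counts of a testes library (SD, n = 18) for the testes side and 22.7 ± 2.27% of an arcuate nucleus library (SD, n = 20) for the arcuate side. In the other tissue they took 1.64 ± 0.652% and 1.93 ± 0.227%. Since the genes were chosen by this contrast, the shares are a description. C44 had 4.31% of its counts on the testes genes, and the highest of the other arcuate nucleus libraries 2.15%.

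The same gene was the most counted in all 38 libraries. It held 4.83 ± 1.29% of the counts of an arcuate nucleus library and 2.69 ± 0.714% of a testes library. The 10 genes with the highest mean CPM in each tissue had 5 in common, and all 5 were DEG with a higher level in the arcuate nucleus. Of the 100 highest 36 were shared, and of the 1000 highest 504. Among the 100 highest of the testes, 32 were at least 4-fold higher there, and among the 100 highest of the arcuate nucleus 45.

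Counts were more concentrated in the arcuate nucleus. Its 10 most counted genes held 14.1 ± 3.60% of a library (SD, n = 20), from 9.36 to 23.3%, against 8.35 ± 1.32% in the testes (SD, n = 18), from 6.71 to 11.4%. Averaged over the planes, testes minus arcuate nucleus was -5.74 percentage points (permutation test within planes, two-sided, p = 1e-05, adjusted p = 2.2e-05 over 9 measures). This is the smallest p that 100000 resamples can give. The share of the 100 most counted genes was 27.6 ± 4.40% in the arcuate nucleus against 22.1 ± 1.84% in the testes, with the same p. For the 1000 most counted genes the shares were 54.5 ± 4.24% and 52.7 ± 2.40%, a difference that did not pass the test (permutation p = 0.143, adjusted p = 0.183). By mean CPM, the 5 genes common to the 10 highest of both tissues held 9.94% of arcuate nucleus and 4.98% of testes counts. Much of the difference in the 10 most counted genes thus lay on shared genes. Mitochondrially encoded genes could not be recognised without names, so their part in it was not tested.

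**Figure D4:**
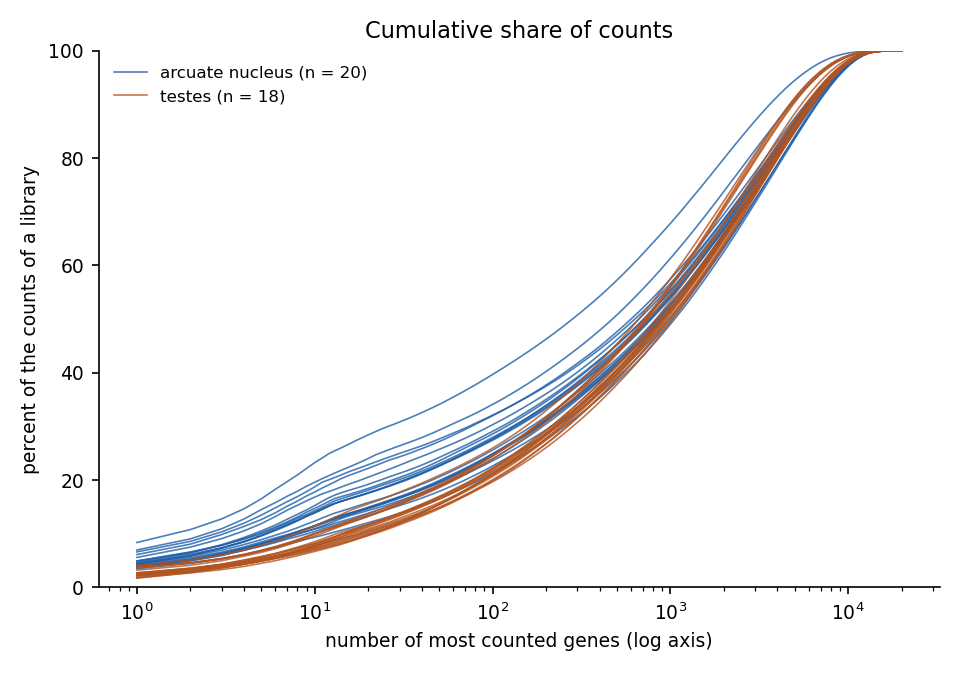
Percent of the counts of each library held by its most counted genes, against the number of genes on a log axis, with testes in brown (n = 18) and arcuate nucleus in blue (n = 20). Most arcuate curves lie higher up to about 100 genes and the curves merge near 1000, apart from the top arcuate curves, C6 and C33.

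As a measure over all genes, the effective number of genes, the exponential of the Shannon entropy of the counts, was 3930 ± 501 in the testes against 3196 ± 730 in the arcuate nucleus (permutation test within planes, p = 0.00133, adjusted p = 0.0024). Within the low plane alone the difference was 688 genes and missed the threshold (exact permutation test, p = 0.0879). The number of genes that hold 50% of the counts was 871 ± 108 and 770 ± 184 (permutation p = 0.0623), and that for 90% was 5782 ± 590 and 6016 ± 691 (permutation p = 0.24). The first of these passed without C44 (p = 0.039), without B42 (p = 0.0355) and without all 7 libraries that stood apart (p = 0.00723).

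The testes libraries also held reads of more genes. At a common depth of 8586953 reads, which leaves out C22, a read was expected for 18018 ± 361 genes in the testes (SD, n = 18) and 17070 ± 431 in the arcuate nucleus (SD, n = 19), a difference of 946 over the planes (permutation p = 1e-05, adjusted p = 2.2e-05). In 12 of 18 testes libraries the number was above that of every arcuate nucleus library, and without C44 in 17 of 18. C44 had 17992 genes, the highest of the arcuate nucleus. At the depth of C22, 898979 reads, the difference was 168 genes and was not detectable (permutation p = 0.406). The number of genes above 1 CPM was 14096 ± 558 in the testes against 14133 ± 667 in the arcuate nucleus (permutation p = 0.824), and above 0.1 CPM 17584 ± 444 and 16587 ± 548 (permutation p = 1e-05). Both counts took in C22 and were not brought to one depth. At 0.1 CPM a single read passed in shallow libraries such as C22 and B20, so that count depends on depth.

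**Figure D5:**
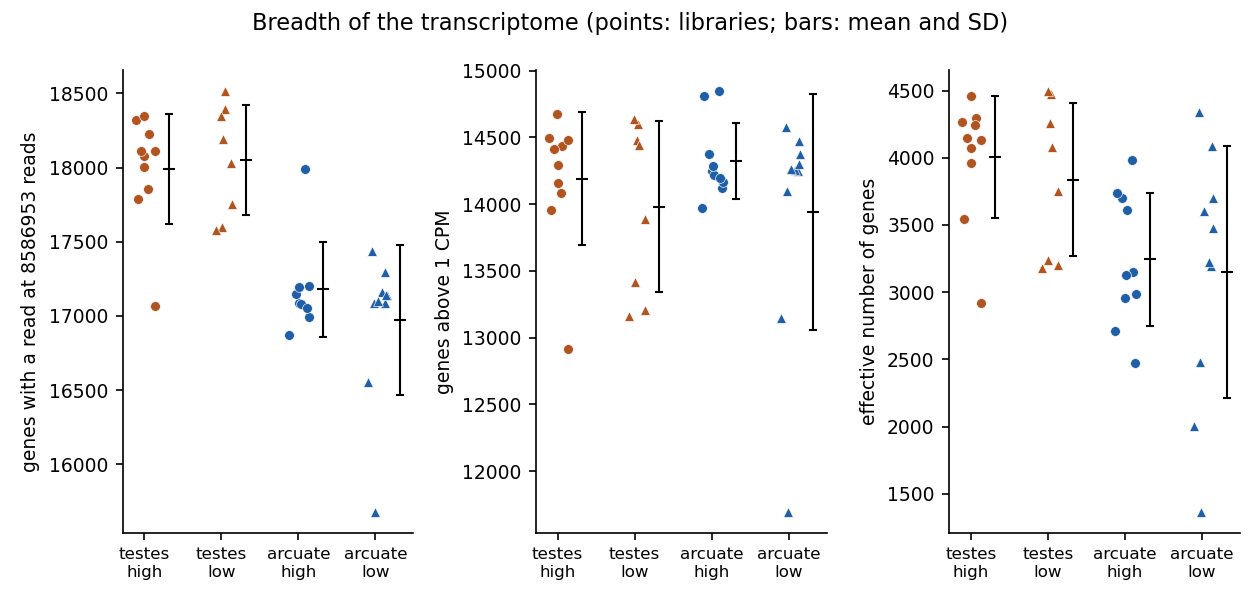
Genes with an expected read at a common depth (left), genes above 1 CPM (middle) and effective number of genes (right) in each library by tissue and plane, with bars for mean and SD and vertical axes that do not start at 0. The tissues separate in the left panel except for C44 and B42, at 17992 and 17066 genes, and overlap in the middle panel.

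The low libraries of these measures were those of the second component. C6 had 15681 genes at the common depth and an effective number of 1366, and B42 had 17066 and 2917. Without C44 and the 6 libraries, the testes were above the arcuate nucleus by 1063 genes at the common depth and by 832 in the effective number (permutation p = 1e-05 and p = 3e-05), with 14 testes and 17 arcuate nucleus libraries in the second.

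Some genes were at a like level in both tissues. For 2383 genes, 15.4% of those tested, the 95% interval of the fold change lay within 1.5-fold in either direction, and 604 of these were DEG. The remaining tests without a call were less certain. Of the 3718 genes that were not DEG, 1779 had an interval within 1.5-fold. Of 1214 genes with at least 100 CPM in both tissues, 353 had an interval within 1.5-fold, while 516 were DEG towards the testes, 332 towards the arcuate nucleus, and 23 and 29 of those were at least 4-fold apart.

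The anterior pituitary, which took no part in the fit, gave a further reading of the 4-fold genes. A mean of at least 1 CPM in the pituitary was seen for 62.3% of the testes genes and 76.0% of the arcuate genes, beside 88.2% of all genes tested. The pituitary mean was at least 50% of that in the higher tissue for 191 of 1528 testes genes and 545 of 2180 arcuate genes. The pituitary mean lay above both tissues for 73 and 227 of the 4-fold genes, 4.78% and 10.4%. Over all DEG on each side that held for 11.5% and 15.8%. These are counts of genes and no test was made of the difference between the sides.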

How the data were processed

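Counts of reads on 24616 Ensembl genes, as whole numbers without normalization, were deposited by the authors for each library. Per the labels, frozen tissue was homogenised in Trizol and its RNA purified on RNeasy columns, while the paper names the RNeasy kit alone. Single-end libraries were made with the TruSeq kit. The submitters' processing notes name CASAVA 1.4, STAR, HTSeq and edgeR, and the genome build, annotation release and strand setting were not given in the sources used here. How reads on antisense or near-identical genes were assigned is therefore not known here.

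The deposited counts were taken into edgeR 4.0.16 under R 4.3.3. Genes were filtered by edgeR's default rule on tissue, libraries were scaled by TMM, and the testes were compared with the arcuate nucleus by the quasi-likelihood test with diet as covariate, Benjamini-Hochberg adjustment and an FDR threshold of 0.05. DESeq2 1.42.0 and limma 3.58.1 with voom and quality weights were alternatives. Measures of a library were compared by permutation within planes with 100000 resamples, or exactly within one plane, in Python 3.11.15 with numpy 2.4.6. Principal components used log2 CPM with a prior count of 2. The p-values measure the spread between libraries, since calves could not be matched across tissues.

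The genes named are, by rule, those with the largest fold change among DEG with at least 10 CPM in the higher tissue and no overlap between tissues. The files give no gene names, and the reference table gave no link to Ensembl identifiers, so at most 2 identifiers are printed in each direction. The planned marker lists, gene lists and sequence features could not be applied, nor could names be given to the most counted or the equally expressed genes. The comparison and the lists were chosen with earlier results of these data known.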

Additional observations from a re-analysis of the deposited data

Results flagged for a closer look

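Within tissue and plane, 16 measures were screened for a library far from the nearest of the others by Dixon's ratio, over 64 groups, of which chance would flag about 1 in 20. The screen named 15 values. The library C44 stood out in 4 of them, with 17992 genes at the common depth, a first component score of -71.4, and 162 and 80.6 CPM of ENSBTAG00000021516 and ENSBTAG00000014335, beside nearest values of 17202, -117, 42.3 and 21.1.

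The library B42 stood out in 5, with 17066 genes at the common depth, 12917 genes above 1 CPM, 4676 genes holding 90% of its counts, and component scores of 188 and 119. The nearest testes libraries of the high plane had 17787, 13957, 5781, 122 and -58.8. The library C6 stood out in 3, with 15681 genes at the common depth, 11695 genes above 1 CPM and 641 CPM of ENSBTAG00000012912, beside 16557, 13143 and 311.

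Other single values were flagged in the other libraries. C41 had the largest total count of the low plane arcuate nucleus, 27729419 reads. B15 had 4442 CPM of ENSBTAG00000021516 among testes libraries of the low plane, where the next had 2308. B5 had 0.465 CPM of ENSBTAG00000012912 among testes libraries of the high plane, where the next had 0.23.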

How the results depend on the processing

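Of 211 recomputed values, 190 kept their direction and their side of the threshold or stayed within 1.5 times. Of these, 51 were counts of DEG and 52 counts of 4-fold genes, mostly with 1 library left out. These counts were judged on the total of both sides, so a change in the order of the sides was not flagged. DEG numbered 9099 to 15052 over 12 alternatives and 11644 to 12142 when each library was left out in turn, and 4-fold genes 3328 to 5434 and 3667 to 3758. A threshold of 2-fold gave 7169 genes and edgeR's test against a 4-fold change 2940. Library totals in place of TMM moved the median log2 fold change of all genes from 0.04 to 0.15, and without a filter the testes share of 4-fold genes was 52.5% in place of 41.2%. The interaction called 203 genes with DESeq2, 0 to 8 when C22, B42 or C44 was left out, and 69 without C44 and the 6 libraries of component 2. At the depth of C22 the difference in genes detected fell to 168. The difference in genes above 1 CPM, -48.4, turned to 36.98 on the low plane alone, 76.3 without the 7 libraries and 997 at 0.1 CPM, and ran from -21.4 to 22.3 when C22, B42 or C44 was left out. The share of the 1000 most counted genes passed the test without the 7 libraries, at -1.96 points, as did the genes holding 50% of counts, at 113, which ran from 105 to 111 with C22, B42 or C44 left out. The effective number missed it on the low plane, at 688. Genes seen in the testes only rose from 0 to 6 without C44, and, also without C44, to 46 with 1 read allowed per library and to 35 with a pooled level below 0.01 CPM allowed, while with C44 both looser rules left 0. Genes seen in the arcuate nucleus only rose from 0 to 2 and 1 under those looser rules, with or without C44. The cause of these shifts was not tested. The alternatives without C44, without the 7 libraries and without each library in turn were chosen after seeing the data, except that leaving out C22 or B42 was already planned for most results, with earlier results of these data known. Leaving out mitochondrially encoded genes was not run, since genes have no names here. No paired analysis was possible because the labels share no replicate number between the tissues. Depth limits genes detected most in C22.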
